A study of Mus musculus with 4 samples.

Results

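Chemokines and their receptors were followed in nuclei of mouse aortic tissue. The gene set held every gene whose symbol starts with Ccl, Cxcl, Ccr or Cxcr followed by its number, together with Cx3cl1, Cx3cr1, Xcl1, Xcr1 and Ppbp. It came to 63 of the 32285 genes in the count matrices, or 57 symbols, since 5 symbols (Ccl19, Ccl21a, Ccl21b, Ccl21c and Ccl27a) are listed more than once. The 63 genes were 45 ligand genes and 18 receptor genes, chosen by name and not by any measured value.

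Chemokines are small secreted proteins that bind heparan sulfate on vessel walls and signal through G protein-coupled receptors on leukocytes, which then adhere and migrate. In the artery wall, Ccl2 acting on Ccr2 and Cx3cl1 acting on Cx3cr1 are known for bringing monocytes into atherosclerotic lesions. Cxcl12 acting on Cxcr4 retains haematopoietic cells in their niches, and Ccl21 made by lymphatic vessels guides cells that carry Ccr7.

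The mice carried a CA1 (carbonic anhydrase 1) knock-in on an ApoE-/- background in every group, and ApoE-/- mice develop atherosclerosis. Each of the 4 groups was 1 library. The first group had no treatment, the second was fed high-fat food, the third was fed high-fat food and given methoxazolamide (MTZ in the series' text) once atherosclerosis was established, and the fourth received methoxazolamide at the same time as the high-fat food. The age of the mice, the number of animals behind a library and the promoter of the knock-in are not given in the sources used here. With 1 library per group there is no replicate error, so no p-value is given, and a difference between 2 libraries is not shown to be a difference between treatments. The libraries are called untreated, high-fat, MTZ-after and MTZ-with below, and values over all 4 are given in that order.

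The libraries held 22413, 38114, 28116 and 19335 nuclei with 69201159, 50358151, 31517272 and 37962370 UMIs (counted RNA molecules), or a median of 2026, 969, 827 and 1420 UMIs per nucleus. After filters on quality and likely doublets, 99725 nuclei were kept, which carried 23094, 26359, 14319 and 15896 UMIs of the 63 genes. Between 119 and 376 barcodes were shared by a pair of libraries, at most 1.34% of the smaller library. Nuclei were clustered without the chemokine genes and 15 classes were named from marker genes. The libraries differed in what tissue they held. Macrophage-like nuclei made up 9.87%, 42.0%, 10.3% and 11.03% of kept nuclei, where the 14747 of the high-fat library became 1318 without doublet removal and between 7989 and 12931 with other filter and clustering settings. This class leaves out an unnamed cluster (cluster 5) led by Ms4a14, St18, Ms4a7 and Atp6v0d2. St18, Ms4a7 and Atp6v0d2 also led a macrophage-like cluster (cluster 11). Cluster 5 held 175, 3057, 165 and 304 nuclei, or 0.842%, 8.71%, 0.634% and 1.70% of kept nuclei. The class also leaves out unnamed cluster 3, led by Vmn2r26, Padi4 and Alox15, in which 4 of the 14 macrophage markers were enriched. Cluster 3 held 32, 40, 175 and 750 nuclei. The same libraries held brown adipocyte-like nuclei at 36.6%, 4.08%, 14.8% and 12.0%. Adrenal cortex-like nuclei were 16.3% of the MTZ-after library, where 4238 of them were found, against 0, 1 and 4 nuclei in the other libraries. Mesothelial-like nuclei were 6.26%, 0.16%, 1.97% and 15.5%. Every compared class was checked against its markers: the 14 macrophage markers were all detected in each library's macrophage-like nuclei, while 1 of 9 B cell markers was at 0 in the MTZ-after library's B cell-like nuclei and 1 of 8 brown adipocyte markers in the high-fat library's brown adipocyte-like nuclei.

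Levels are in CPM, the count of a gene in the nuclei summed, scaled to a common total of UMIs, with exact Poisson 95% intervals, and ratios of 2 libraries carry exact conditional 95% intervals. All intervals cover counting error only. Genes with at least 50 counts in the library of higher CPM count as tested, and a tested gene was called if the CPM of the 2 libraries differed at least 2-fold. UMI counts are not corrected for gene length, so levels are compared between libraries and classes for 1 gene and not between genes. Of the 63 genes, 10 had no UMI in any library. For a gene with no UMI the upper limits were 0.0571, 0.0802, 0.126 and 0.103 CPM. These 10 were Ccl20, Ccl27b and 8 of the 11 copies of the symbols listed more than once. A further 9 genes had 1 to 49 UMIs over the 4 libraries, 17 had at least 50 and fewer than 500, and 27 had at least 500.

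**Figure D1:**
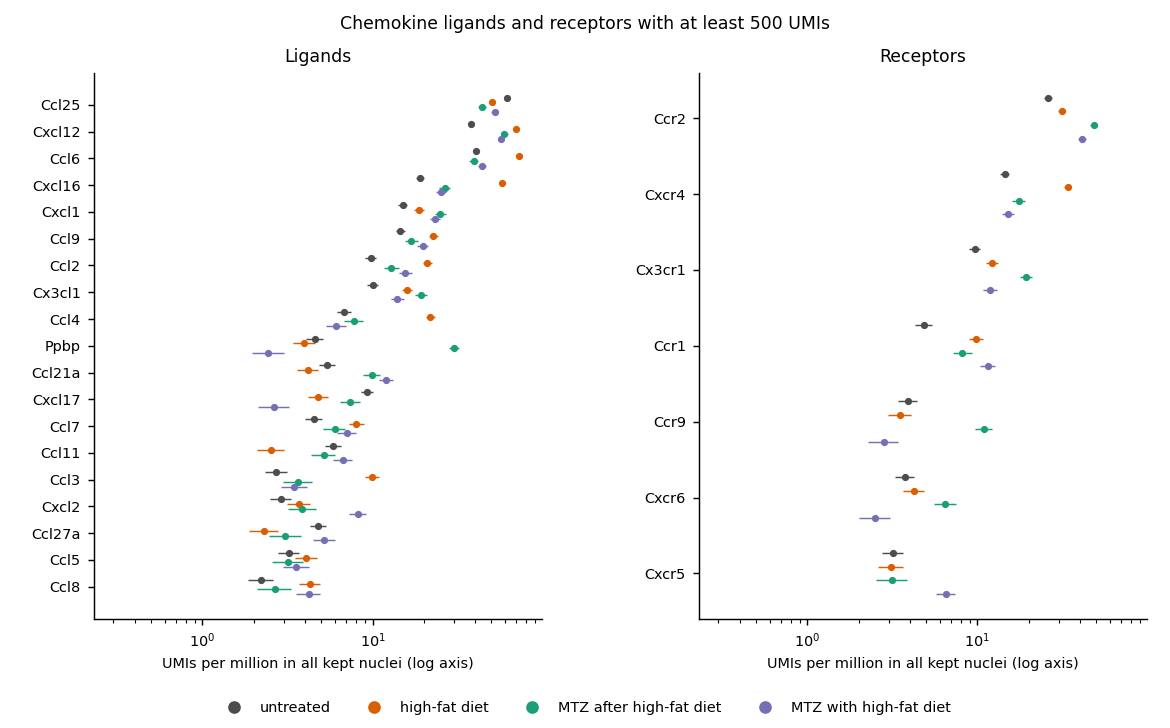
Levels of 19 ligand genes and 7 receptor genes with at least 500 UMIs over the 4 libraries, in CPM over all kept nuclei (log axis), 1 point per library with its exact Poisson 95% interval. The high-fat library lies to the right of the other 3 for Cxcl16, Cxcr4, Ccl4 and Ccl3, and the MTZ-after library lies apart for Ppbp and Ccr9.

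Summed over all kept nuclei, 11 members were called higher and 3 lower in the high-fat library than in the untreated one. Cxcl16 was 3.05-fold higher (95% interval 2.85 to 3.27), Ccl4 3.23-fold (2.88 to 3.62) and Ccl3 3.66-fold (3.07 to 4.38). Ccl11, Ccl27a and Cxcr2 were lower. Of the 63 genes, 35 were tested, so the 14 calls are 40.0% of those tested, against 13.8% of all 16360 genes tested in the same way, and the median log2 ratio was 0.32 for the tested members and 0.09 for all genes tested. The 14 macrophage markers summed to 1101, 2042, 1047 and 1196 CPM over all kept nuclei, a high-fat to untreated ratio of 1.85, and their part in these calls was not tested. Without the classes of tissue around the vessel, 7 of 35 tested members were called higher and 3 lower, beside 5.88% of all genes. Without macrophage-like nuclei and unnamed clusters, 14 of 31 were called higher and 2 lower, beside 15.1% of all genes. Summed over all nuclei, more nuclei of a class and more RNA per nucleus cannot be told apart, so the same genes are given by class further on. Of the 14 calls, those of Ccr1 and Ccl12 were lost in 3 of 5 alternative settings, that of Cxcl9 in 2, and those of Ccl2, Ccl27a and Cxcr2 in 1.

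Against the high-fat library, the MTZ-after library had 4 members called higher and 5 lower of 32 tested, or 28.1%, beside 16.3% of all genes tested. The MTZ-with library had 9 higher and 9 lower of 37 tested, or 48.6%, beside 10.5% of all genes tested. The median log2 ratio of the tested members was -0.23 in MTZ-after, where it was 0.03 for all genes, and -0.18 in MTZ-with, where it was 0.10 for all genes. In MTZ-after the calls were Ppbp, Ccr9, Ccl21a and Ccl11 higher and Ccr6, Ccl4, Ccl3, Ccl12 and Cxcl16 lower. In MTZ-with they included Ccl24, Cxcl3, Ccl21a, Ccl11, Cxcl13, Ccl27a, Cxcl2, Cxcr5 and Cxcl5 higher and Ccl4, Cxcl9, Ccl3, Ccl12, Cxcl10, Cxcl16, Cxcr4 and Ccr6 lower. All 3 comparisons use the high-fat library, so a gene that is high in that library is lower in both MTZ comparisons. Without macrophage-like nuclei and unnamed clusters, 5 of 29 tested members were called in MTZ-after (Ccl21a, Ccr9 and Ppbp higher, Ccl4 and Ccr6 lower), beside 14.6% of all genes, and 9 of 31 in MTZ-with, beside 9.37%. In alternative settings the calls of Ccl11 in MTZ-after and Cxcl5 in MTZ-with were lost in 3 of 5, that of Cxcr5 in MTZ-with in 2, and those of Ccl12 in both and of Ccl24, Cxcl3, Cxcl9, Cxcl13 and Cxcr4 in MTZ-with in 1.

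Among the receptors of monocytes and macrophages, Ccr2, the receptor that draws monocytes out of the bone marrow, stood at 26.0, 31.2, 48.2 and 41.2 CPM over all kept nuclei and was called in no comparison there. The gene (ENSMUSG00000049103) lies on chr9:124101950-124113557, plus strand, in build mm10. Within macrophage-like nuclei it gave 712, 694, 323 and 419 UMIs. Those are 124 CPM (115 to 133), 42.2 (39.2 to 45.5), 120 (108 to 134) and 121 (110 to 133). The high-fat library was thus low and the other 3 overlapped each other. The high-fat to untreated ratio was 0.341 (0.307 to 0.379), and the ratios to high-fat were 2.85 (2.49 to 3.26) in MTZ-after and 2.87 (2.54 to 3.24) in MTZ-with.

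The macrophage-like class was made of 3 clusters, whose mix differed between libraries. Cluster 6, led by Ctsl, Gpnmb, Fabp5, Cd68 and Mmp12, gave 31.6%, 7.82%, 7.03% and 18.1% of the class. Cluster 11, led by St18, Ms4a7, Atp6v0d2 and Mmp12, gave 21.6%, 88.6% and 61.8%, and 984 of the 1968 macrophage-like nuclei of MTZ-with. Cluster 20, led by Cd163, F13a1, Il1b, Clec10a and Adgre4, gave 46.8%, 3.57%, 31.2% and 31.9%. In cluster 20, 5 of the 14 macrophage markers and 7 of the 11 monocyte and dendritic cell markers were enriched, so that this cluster is close to both names.

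Ccr2 was concentrated in cluster 20 in every library, at 343 CPM (318 to 370), 234 (197 to 276), 334 (294 to 378) and 392 (351 to 436), and no interval of another compared class reached it. Cluster 11 had 37.0, 38.4, 40.5 and 42.8 CPM of Ccr2, with intervals that overlap in all 4 libraries. Cluster 6 had 7.17, 17.7, 18.3 and 18.1. In cluster 6 alone, the high-fat to untreated ratio of Ccr2 was 2.47 (1.47 to 4.26), past 2-fold but on too few UMIs to be tested. The ratio was 1.04 (0.679 to 1.67) in cluster 11 and 0.681 (0.564 to 0.818) in cluster 20, where Ccr2 was tested and not called. The MTZ-after to high-fat ratio was 1.43 (1.16 to 1.77) in cluster 20 and the MTZ-with ratio 1.68 (1.37 to 2.05). The share of cluster 20 in the class was 46.8% in the untreated library and 3.57% in the high-fat library.

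At least 1 UMI of Ccr2 was found in 26.4%, 14.3%, 19.4% and 26.4% of cluster 20 nuclei, whose median depth was 1601, 886, 759 and 1053 UMIs. With nuclei thinned to 500 UMIs these shares were 10.6%, 8.75%, 11.5% and 14.3%, and no nucleus of these classes was too shallow to be thinned. Endothelial-like nuclei, which should lack the gene, had a Ccr2 UMI in 1.73%, 2.60%, 3.23% and 4.18% of nuclei (thinned 0.425%, 1.25%, 1.89% and 0.992%) at a median depth of 1916, 898, 765 and 1887 UMIs. Their Ccr2 level was 7.17, 22.3, 33.3 and 17.4 CPM, and the adrenal cortex-like nuclei of MTZ-after, which should lack it too, had 43.2 CPM. The Ccr2 level of cluster 11 in MTZ-after, 40.5 CPM, lay between these values, and the part of free RNA in it was not tested. T/NK-like nuclei, among which activated T cells carry the receptor, had 147, 64.0, 60.9 and 114 CPM of Ccr2, and the high-fat level was called lower than the untreated one at a ratio of 0.434 (0.280 to 0.649). The 12 T/NK markers summed were 0.683 of untreated in the same nuclei, with 1 of 12 higher, and their part in the Ccr2 difference was not tested.

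**Figure D2:**
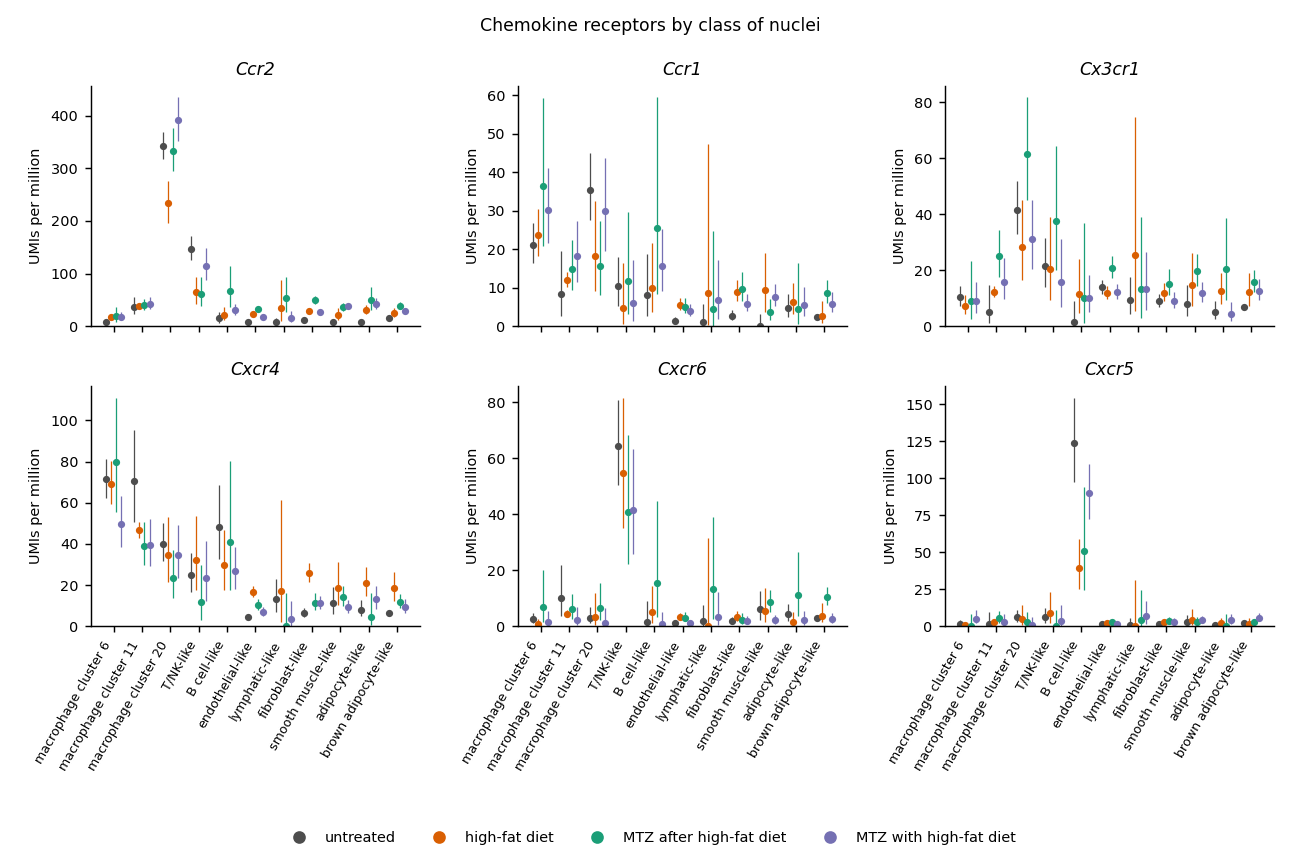
Levels in CPM of Ccr2, Ccr1, Cx3cr1, Cxcr4, Cxcr6 and Cxcr5 by class of nuclei, with the 3 macrophage-like clusters shown separately, 1 point per library with its exact Poisson 95% interval. Cluster 20 holds the highest Ccr2 level in all 4 libraries, B cell-like nuclei the highest Cxcr5 level and T/NK-like nuclei the highest Cxcr6 level.

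Ccr1, which binds Ccl3, Ccl5 and other inflammatory ligands, stood at 4.84, 9.85, 8.17 and 11.5 CPM over all kept nuclei. Its high-fat to untreated ratio was 2.03 (1.76 to 2.36), just past 2-fold, and 24.7, 14.1, 18.6 and 25.7 CPM were found in macrophage-like nuclei. An unnamed cluster led by Padi4, Alox15 and Serpinb2 (cluster 3), of which 750 nuclei came from MTZ-with, had 54.7 CPM of Ccr1 in that library.

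Cx3cr1, the fractalkine receptor of patrolling monocytes and tissue macrophages, was 9.62, 12.2, 19.3 and 11.9 CPM over all kept nuclei. In macrophage-like nuclei it was 20.4 CPM (16.8 to 24.4), 11.9 (10.3 to 13.7), 32.8 (26.3 to 40.4) and 17.1 (12.99 to 22.0), and the MTZ-after to high-fat ratio of 2.75 (2.11 to 3.55) was called. Cluster 20 carried 41.7, 28.2, 61.5 and 31.0 CPM of Cx3cr1. The annotated Cx3cr1 locus, chr9:119901616-120069879, overlaps Gorasp1, Csrnp1 and Xirp1 on the same strand, so its counts are uncertain.

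Of the compared classes, B cell-like nuclei had the highest level of Cxcr5 and Ccr6 and T/NK-like nuclei that of Cxcr6 in every library. Cxcr5, which guides B cells into follicles, was 3.17, 3.11, 3.14 and 6.51 CPM over all kept nuclei, and B cell-like nuclei had 124, 39.6, 51.0 and 89.7 CPM. No other class overlapped B cell-like nuclei in any library. In B cell-like nuclei the high-fat to untreated ratio of Cxcr5 was 0.321 (0.194 to 0.513) and the MTZ-with to high-fat ratio 2.26 (1.44 to 3.70), both called. The MTZ-with ratio over all kept nuclei, 2.09 (1.69 to 2.60), was also called, in a library where B cell-like nuclei were 3.44% of the total against 1.48% in high-fat. The summed macrophage markers in B cell-like nuclei were 3.68-fold higher in high-fat than in untreated. The 9 B cell markers summed were 0.675 of untreated there, with 1 of 9 higher, and the part of either list in the Cxcr5 result was not tested.

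Ccr6, the Ccl20 receptor of B cells and some T cells, had 69, 286, 42 and 99 UMIs over all kept nuclei, or 1.07, 6.22, 1.44 and 2.78 CPM. The high-fat library was the highest, with a ratio to untreated of 5.82 (4.46 to 7.69), and MTZ-after and MTZ-with were lower than high-fat at 0.231 (0.163 to 0.320) and 0.447 (0.352 to 0.563). B cell-like nuclei carried 46.6, 76.0, 20.4 and 45.3 CPM of Ccr6. Macrophage-like nuclei gave 4, 93, 5 and 3 UMIs of it, a high-fat to untreated ratio of 8.14 (3.07 to 30.5), and the ratios to high-fat were 0.329 (0.104 to 0.796) in MTZ-after and 0.153 (0.0311 to 0.462) in MTZ-with. In cluster 11, where 81 of those 93 high-fat UMIs lay, the summed B cell markers were 2.47-fold higher in high-fat than in untreated, and their part in the Ccr6 difference was not tested.

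Cxcr4, the Cxcl12 receptor of most leukocytes, was 14.5, 34.0, 17.5 and 15.1 CPM over all kept nuclei, with the high-fat library above the others. The high-fat to untreated ratio was 2.35 (2.17 to 2.55) and the MTZ-with to high-fat ratio 0.445 (0.402 to 0.491). In macrophage-like nuclei Cxcr4 was 60.7, 49.9, 41.4 and 42.2 CPM, with no call. Cxcr6, the Cxcl16 receptor of effector T cells and NK cells, was 3.73, 4.24, 6.46 and 2.496 CPM over all kept nuclei and 64.3, 54.8, 40.6 and 41.4 CPM in T/NK-like nuclei. In macrophage-like nuclei the MTZ-with to high-fat ratio of Cxcr6 was 0.446 (0.158 to 1.02), called on 6 against 64 UMIs with an interval that includes 1. Ccr7, the Ccl21 receptor, had 54.6 CPM in untreated B cell-like nuclei and 3.30, 20.4 and 8.33 CPM in the other libraries, on 34, 2, 4 and 9 UMIs.

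Ccr9, the Ccl25 receptor of gut-homing lymphocytes, was 3.88, 3.50, 10.9 and 2.80 CPM over all kept nuclei, a MTZ-after to high-fat ratio of 3.12 (2.57 to 3.79). In the MTZ-after library it was spread over classes, at 12.1 CPM in adrenal cortex-like, 14.8 in brown adipocyte-like, 13.4 in smooth muscle-like, 9.92 in endothelial-like and 6.71 in macrophage-like nuclei. Its locus, chr9:123678439-123784330, overlaps Gm17200 and Gm17020 on the same strand and Lztfl1 and Slc6a20a on the other, so its counts are uncertain. Cxcr2, the neutrophil receptor for Cxcl1, Cxcl2 and Ppbp, was 1.996, 0.869, 1.54 and 1.37 CPM, with a high-fat to untreated ratio of 0.436 (0.298 to 0.625). In the untreated library 38 of its UMIs came from cluster 20, at 19.6 CPM (13.8 to 26.8), where high-fat and MTZ-after had 0 and MTZ-with had 4. The 7 neutrophil markers summed to 337, 109, 147 and 372 CPM in cluster 20, and their part in the Cxcr2 difference was not tested.

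Among the CC ligands of macrophages, Ccl6, which macrophages and other myeloid cells secrete and which acts on Ccr1, was 40.4, 72.4, 39.3 and 44.0 CPM over all kept nuclei, and no ratio reached 2. The gene (ENSMUSG00000018927) lies on chr11:83587882-83593087, minus strand, and overlaps E230016K23Rik on the other strand. In macrophage-like nuclei Ccl6 was 244 CPM (232 to 258), 115 (109 to 120), 130 (117 to 145) and 94.9 (84.9 to 106). The untreated library stood above the rest, and the high-fat to untreated ratio was 0.469 (0.437 to 0.503). By cluster the ratio was 0.858 in cluster 6, 1.24 in cluster 11 and 0.598 in cluster 20, none of them past 2-fold. Cluster 6 had 299, 256, 240 and 93.5 CPM of Ccl6, and its MTZ-with to high-fat ratio of 0.365 (0.299 to 0.442) was called.

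Ccl9, a neighbour of Ccl6 with a like action on Ccr1, was 14.6, 22.7, 16.9 and 19.7 CPM over all kept nuclei. In macrophage-like nuclei Ccl9 was 78.6 CPM (71.5 to 86.2), 34.2 (31.4 to 37.1), 60.03 (51.1 to 70.0) and 43.7 (37.0 to 51.2), a high-fat to untreated ratio of 0.434 (0.383 to 0.493). The macrophage-like calls of Ccl6 and Ccl9 were each lost in 4 of 8 alternative settings, where their ratios rose to as much as 0.924 and 0.787. By cluster the Ccl9 ratio was 0.801, 0.957 and 0.519 in clusters 6, 11 and 20. For Ccr2, Ccl6 and Ccl9 alike, the ratio in the whole class was smaller than the ratio in any of its clusters.

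**Figure D3:**
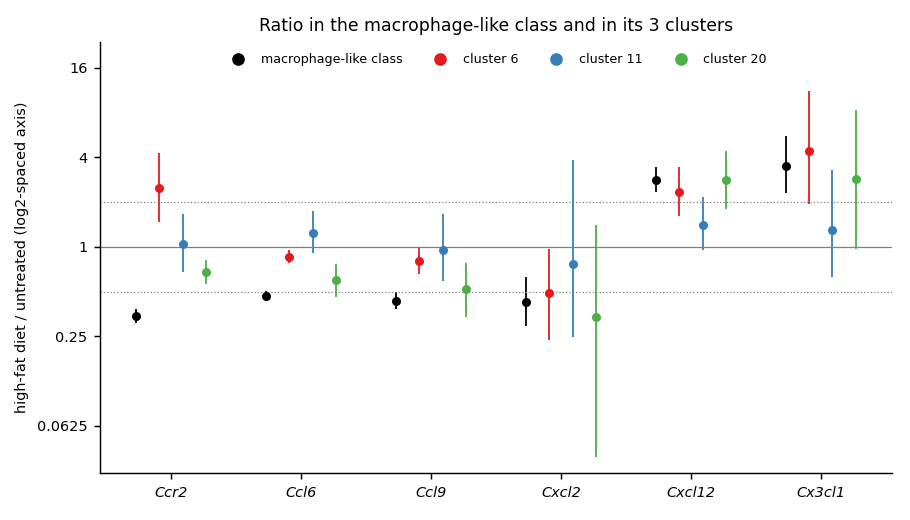
High-fat to untreated ratio (log2-spaced axis) of 6 members called in macrophage-like nuclei (Ccr2, Ccl6, Ccl9, Cxcl2, Cxcl12 and Cx3cl1), with exact 95% intervals, for the whole class (black) and for clusters 6, 11 and 20. For Ccr2, Ccl6 and Ccl9 the black point lies below all 3 cluster points, while Cxcl12 is above 1 in the class and in each cluster.

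Ccl2, the main Ccr2 ligand, was 9.75, 21.0, 12.9 and 15.6 CPM over all kept nuclei, called higher in high-fat than in untreated at 2.16 (1.95 to 2.39). In macrophage-like nuclei Ccl2 was 38.1, 29.1, 45.9 and 47.7 CPM, with no call. Of the macrophage-like clusters and the other compared classes, cluster 6 had the most Ccl2 in every library, at 50.2, 45.6, 107 and 81.5 CPM. Ccl7, a second Ccr2 ligand, was 4.52, 8.04, 5.98 and 7.07 CPM over all kept nuclei and 16.4, 9.74, 14.2 and 28.1 CPM in macrophage-like nuclei, where the MTZ-with to high-fat ratio was 2.88 (2.22 to 3.73). In cluster 6 Ccl7 was 17.8, 15.4, 38.8 and 56.6 CPM, so MTZ-with was again called, at 3.66 (2.47 to 5.50). Ccl8, a ligand of Ccr8 in mice, was 2.20, 4.28, 2.67 and 4.21 CPM, and Ccl12, another Ccr2 ligand, was 0.557, 1.22, 0.547 and 0.449 CPM. The Ccl12 ratios were 2.19 (1.41 to 3.42), 0.449 (0.241 to 0.794) and 0.369 (0.197 to 0.652) in the 3 comparisons, all called.

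Ccl3 and Ccl4, chemokines made by activated macrophages, were highest in the high-fat library. Ccl3 had 175, 456, 106 and 124 UMIs, or 2.71, 9.91, 3.62 and 3.48 CPM, and Ccl4 had 438, 1007, 227 and 218 UMIs, or 6.78, 21.9, 7.76 and 6.11 CPM. The 3 other libraries lay close together for both genes. The ratio to high-fat was 0.366 (0.293 to 0.452) for Ccl3 and 0.354 (0.306 to 0.410) for Ccl4 in MTZ-after, and 0.351 (0.285 to 0.429) and 0.279 (0.240 to 0.324) in MTZ-with. Within macrophage-like nuclei Ccl3 was 13.2, 16.3, 9.69 and 15.0 CPM and Ccl4 was 32.2, 32.0, 20.5 and 22.6 CPM, and neither was called. In cluster 11 the MTZ-with to high-fat ratio of Ccl4 was 0.402 (0.217 to 0.683) and was called.

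Ccl5, a T cell and NK cell product, was 3.22, 4.09, 3.18 and 3.56 CPM over all kept nuclei. T/NK-like nuclei had 71.2 CPM (56.7 to 88.2), 43.4 (26.1 to 67.8), 14.5 (4.71 to 33.9) and 104 (78.3 to 137) of Ccl5, and the MTZ-with to high-fat ratio of 2.41 (1.40 to 4.30) was called. In macrophage-like nuclei Ccl5 went the other way between the same libraries, at 0.335 (0.105 to 0.818) on 5 against 71 UMIs, but without doublet removal that ratio was 1.10. Ccl11 (eotaxin), a fibroblast product that attracts eosinophils, was 5.86, 2.52, 5.16 and 6.67 CPM over all kept nuclei and 27.5, 4.01, 13.4 and 13.6 CPM in fibroblast-like nuclei. The high-fat library was low, with a ratio to untreated of 0.146 (0.0857 to 0.235) in fibroblast-like nuclei, and MTZ-with was called higher than high-fat there at 3.38 (1.99 to 5.97). The clusters that make up this class differed between the libraries, as given below with the vessel wall classes. Within cluster 14 the high-fat to untreated ratio of Ccl11 was 0.511 (0.246 to 0.981) on 12 against 46 UMIs. Within cluster 21 it was 0.568 (0.144 to 2.65) on 7 against 4 UMIs. The MTZ-with to high-fat ratio in cluster 14 was 1.51 (0.775 to 3.16) on 40 against 12 UMIs. These counts were below the minimum, so Ccl11 was not tested in any of these and no call was possible. Over all kept nuclei the Ccl11 ratio was 0.430 (0.346 to 0.531) in high-fat, 2.05 (1.60 to 2.63) in MTZ-after and 2.65 (2.11 to 3.33) in MTZ-with. Ccl24, a second eosinophil attractant, was 0.542, 0.304, 0.444 and 1.77 CPM, a MTZ-with to high-fat ratio of 5.81 (3.22 to 11.2). Of the MTZ-with UMIs of Ccl24, 17 lay in cluster 3 and 13 in mesothelial-like nuclei.

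The neutrophil attractants form a cluster of CXC genes on chromosome 5 in mice. Cxcl1, made by stromal cells, was 15.1, 18.9, 25.1 and 23.4 CPM over all kept nuclei and 40.0, 27.0, 41.2 and 35.9 CPM in fibroblast-like nuclei. Cxcl2, which macrophages release on inflammatory stimulation, was 2.89, 3.70, 3.86 and 8.19 CPM over all kept nuclei, with MTZ-with above the rest at a ratio to high-fat of 2.22 (1.83 to 2.69). In macrophage-like nuclei Cxcl2 was 9.39 CPM (7.06 to 12.3), 4.02 (3.11 to 5.11), 8.20 (5.14 to 12.4) and 19.96 (15.5 to 25.3). High-fat was the lowest library at 0.428 (0.294 to 0.625) of untreated, and MTZ-with was 4.97-fold (3.49 to 7.07) above high-fat. In MTZ-with, Cxcl2 was 25.6 CPM in cluster 6, 25.3 in cluster 20, 23.8 in cluster 3 and 10.5 in mesothelial-like nuclei. Cxcl3, a close relative of Cxcl2, was 0.232, 0.370, 0.478 and 1.54 CPM, a MTZ-with to high-fat ratio of 4.17 (2.39 to 7.67), and 21 of its MTZ-with UMIs lay in fibroblast-like nuclei. Cxcl5, another Cxcr2 ligand, was 0.603, 1.00, 1.16 and 2.02 CPM, with a MTZ-with to high-fat ratio of 2.02 (1.38 to 2.99).

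The promoters of Cxcl2 and Cxcl3, which were both higher in MTZ-with, and of Cxcl10, which was higher in high-fat, are shown as examples. They were picked after the values were seen, as genes called over all kept nuclei whose promoter holds the NF-kB motif more than once. The promoters of Cxcl1 and Ccl1, which were called in no comparison over all kept nuclei, also hold it more than once. Each runs from 250 bases before to 50 bases after the RefSeq start site in build GRCm38.p6 and is written on the gene's own strand. Capitals mark matches, on either strand, to the NF-kB motif searched here (GGG, any 3 bases, then TTCC) or to the interferon-response motif (GAAA, any 2 bases, then GAAA).
Cxcl2 (chr5:90903649-90903948, plus strand): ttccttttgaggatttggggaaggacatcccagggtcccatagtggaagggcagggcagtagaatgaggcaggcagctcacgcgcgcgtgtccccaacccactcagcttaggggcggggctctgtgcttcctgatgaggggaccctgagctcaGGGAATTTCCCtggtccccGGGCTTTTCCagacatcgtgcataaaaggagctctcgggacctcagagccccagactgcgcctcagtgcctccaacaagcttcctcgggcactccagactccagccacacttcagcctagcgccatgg
Cxcl3 (chr5:90785851-90786150, plus strand): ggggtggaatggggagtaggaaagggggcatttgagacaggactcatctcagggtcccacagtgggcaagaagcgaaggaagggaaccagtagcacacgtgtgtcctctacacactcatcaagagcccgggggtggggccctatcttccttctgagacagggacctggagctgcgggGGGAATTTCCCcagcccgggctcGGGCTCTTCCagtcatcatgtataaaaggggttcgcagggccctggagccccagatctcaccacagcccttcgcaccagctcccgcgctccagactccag
Cxcl10 (chr5:92348840-92349139, minus strand): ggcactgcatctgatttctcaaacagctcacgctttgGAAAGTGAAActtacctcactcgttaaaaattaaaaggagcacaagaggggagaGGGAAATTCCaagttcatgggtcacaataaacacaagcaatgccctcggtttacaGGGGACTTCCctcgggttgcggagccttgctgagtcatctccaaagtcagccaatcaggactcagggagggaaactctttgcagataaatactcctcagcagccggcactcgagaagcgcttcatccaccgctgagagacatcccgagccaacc
In Cxcl2 the NF-kB matches start at -97, -96 and -78 from the start site and in Cxcl3 at -73, -72 and -50, the first pair in each being overlapping matches on opposite strands. Cxcl10 had NF-kB matches at -159 and -104 and an interferon-response match at -213. Promoters of this length were found for 42 of the 57 symbols. They came to 49 promoters, since some symbols have more than 1. An NF-kB match was present in 9 of the 49 (18.4%: Ccl1, Ccl20, Ccl9, Ccr3, Ccr6, Cxcl1, Cxcl10, Cxcl2 and Cxcl3) and in 5.56% of all 32851 promoters in the table. An interferon-response match was present in 3 (6.12%: Ccl19, Cxcl10 and Cxcl14), against 3.44% of all. The ETS motif GGAAGT was present in 20 (40.8%), against 23.8% of all, and TATAAA in 13 (26.5%), against 13.6%. The promoters of Ccr2 and Ccl6 held neither capitalised motif. A match is a run of letters and not evidence that a factor binds there.

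Ppbp (CXCL7), a platelet chemokine made by megakaryocytes, lies in the same gene cluster at chr5:90768518-90770063. It had 297, 182, 883 and 87 UMIs over all kept nuclei, or 4.60 CPM (4.09 to 5.15), 3.96 (3.40 to 4.57), 30.2 (28.2 to 32.2) and 2.44 (1.95 to 3.01). The MTZ-after library was apart from the other 3, 7.63-fold (6.50 to 8.998) above high-fat. In MTZ-after Ppbp was found in every class at a like level, with 27.3 CPM in adrenal cortex-like, 25.9 in chromaffin-like, 23.4 in hepatocyte-like, 30.9 in endothelial-like, 32.9 in fibroblast-like, 33.4 in brown adipocyte-like, 27.7 in smooth muscle-like, 34.8 in T/NK-like and 30.6 in macrophage-like nuclei. It was 71.4 CPM in B cell-like nuclei, 68.6 in an unnamed cluster led by haemoglobin and ribosomal genes (cluster 12) and 9.13 (2.49 to 23.4) in cluster 6. Alb, a hepatocyte product used as a gauge of free RNA, was read in nuclei of other classes, since hepatocyte-like nuclei numbered 878 in MTZ-after and 6 in high-fat. In endothelial-like nuclei it was 19.1 CPM in MTZ-after on 98 UMIs and 0.442 CPM in high-fat on 4 UMIs. The part of free RNA in the Ppbp level was not tested.

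Cxcl9 and Cxcl10, interferon-induced ligands of the T cell receptor Cxcr3, were both called higher in high-fat. Cxcl10 was 1.45, 4.22, 2.91 and 1.71 CPM, a high-fat to untreated ratio of 2.90 (2.25 to 3.75), and Cxcl9 was 0.758, 1.76, 1.16 and 0.561 CPM, a ratio of 2.32 (1.61 to 3.38). Against high-fat, MTZ-with was lower for Cxcl10 at 0.406 (0.299 to 0.543) and for Cxcl9 at 0.319 (0.185 to 0.525). In macrophage-like nuclei Cxcl10 had 7, 69, 6 and 0 UMIs. Its high-fat to untreated ratio there was 3.45 (1.59 to 8.90), and against a floor of 3 UMIs MTZ-with was at most 0.207 of high-fat. Cxcl10 overlaps Art3 on the other strand. Cxcr3 itself, highest in T/NK-like nuclei in each library, had only 84 UMIs over all kept nuclei.

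Cxcl16, both a chemokine for Cxcr6 and a scavenger receptor for oxidised lipoprotein on macrophages, lies on chr11:70453983-70459984, minus strand, and overlaps Zmynd15. It had 1225, 2659, 778 and 898 UMIs, or 19.0 CPM (17.9 to 20.04), 57.8 (55.6 to 60.03), 26.6 (24.8 to 28.5) and 25.2 (23.6 to 26.9). High-fat was above the other 3 libraries, and the ratio to it was 0.460 (0.424 to 0.499) in MTZ-after and 0.436 (0.403 to 0.470) in MTZ-with. In macrophage-like nuclei Cxcl16 was 67.1, 75.1, 63.4 and 49.8 CPM, with no call. Of the macrophage-like clusters and the other compared classes, cluster 6 was the highest in all 4 libraries, at 91.0, 115, 105 and 64.1 CPM.

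**Figure D4:**
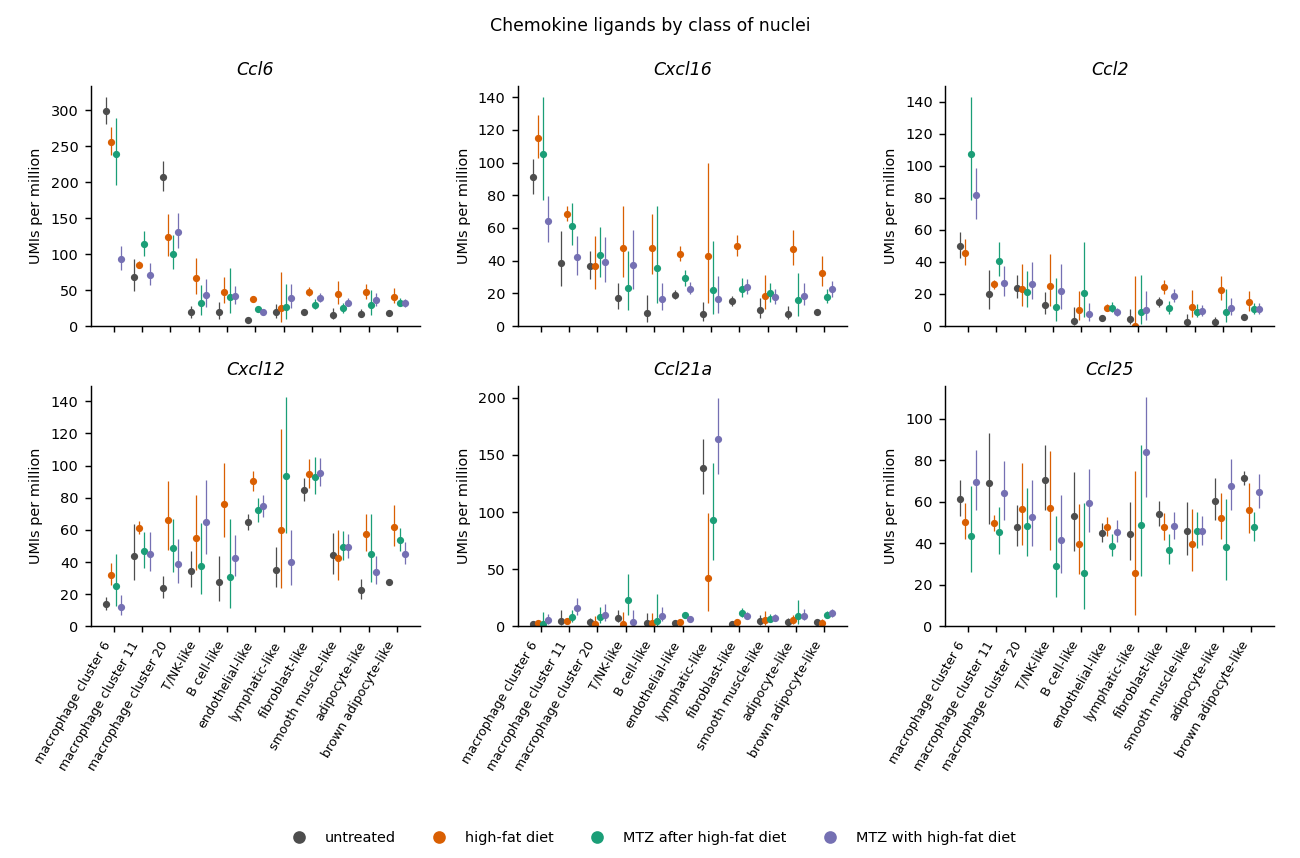
Levels in CPM of Ccl6, Cxcl16, Ccl2, Cxcl12, Ccl21a and Ccl25 by class of nuclei, with the 3 macrophage-like clusters shown separately, 1 point per library with its exact Poisson 95% interval. Cxcl16 and Ccl2 are highest in cluster 6 in all 4 libraries and Ccl21a in lymphatic-like nuclei.

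Among the ligands of stroma and vessels, Cxcl12, made by fibroblasts and endothelium, was 37.7, 69.3, 59.7 and 57.0 CPM over all kept nuclei. Fibroblast-like nuclei had 84.8, 94.9, 93.2 and 95.7 CPM and endothelial-like nuclei 64.7, 90.2, 72.4 and 74.9. Macrophage-like nuclei had less, 20.2, 56.8, 43.6 and 31.0 CPM, and there the high-fat to untreated ratio of Cxcl12 was called at 2.81 (2.32 to 3.44). Cx3cl1, the membrane-bound ligand of endothelium, was 10.0, 16.0, 19.3 and 13.96 CPM over all kept nuclei, 28.7, 18.1, 32.1 and 22.1 in endothelial-like nuclei, and 4.17, 14.5, 18.3 and 8.97 in macrophage-like nuclei, where high-fat was 3.48-fold (2.29 to 5.55) above untreated. Beside these macrophage-like values, Col1a1, a fibroblast collagen gene, was 7.86-fold higher in the same nuclei, and the 10 fibroblast markers summed were 2.65-fold, 1.91-fold and 2.07-fold higher in clusters 6, 11 and 20. Their part in the Cxcl12 and Cx3cl1 differences was not tested.

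Ccl21a, made by lymphatic endothelium, was 5.42, 4.15, 9.91 and 12.0 CPM over all kept nuclei, called higher than high-fat at 2.39 (1.98 to 2.88) in MTZ-after and 2.88 (2.43 to 3.44) in MTZ-with. Lymphatic-like nuclei, which were 2.03%, 0.291%, 0.819% and 1.75% of kept nuclei, had 139, 42.6, 93.4 and 164 CPM of it on 134, 5, 21 and 98 UMIs. With 102 nuclei in the high-fat library this class was not compared. Ccl21a shares near-identical copies with other Ccl21 genes, so the split of reads among them is uncertain. Cxcl13, the B cell attractant, was 1.27, 1.15, 1.54 and 2.69 CPM, with a MTZ-with to high-fat ratio of 2.34 (1.65 to 3.33), and was spread over classes at low counts. Ccl27a, which overlaps Il11ra1 on the other strand, was 4.80, 2.30, 3.08 and 5.19 CPM, with ratios of 0.480 (0.382 to 0.601) in high-fat and 2.25 (1.76 to 2.89) in MTZ-with. Cxcl17, a mucosal chemokine, was 9.30, 4.78, 7.42 and 2.64 CPM over all kept nuclei and 14.2, 14.7, 12.3 and 5.30 CPM in brown adipocyte-like nuclei. In macrophage-like nuclei its MTZ-with to high-fat ratio was 0.492 (0.218 to 0.977), which became 1.01 with nuclei thinned to 500 UMIs.

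Ccl25, known as a thymus and gut chemokine, gave 61.7, 50.1, 44.1 and 52.4 CPM, with no call over all kept nuclei or in macrophage-like nuclei. It was nearly flat over classes, with 54.1, 47.8, 36.8 and 48.2 CPM in fibroblast-like nuclei. The gene (chr8:4325210-4360020, plus strand) overlaps Elavl1 on the other strand, and no source used here says whether counting was stranded. Whether reads of Elavl1 were counted for Ccl25 is therefore not known here, and its counts are uncertain.

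Within macrophage-like nuclei, whose lipid-laden form builds the atherosclerotic lesion, members were called in both directions in every comparison. In high-fat against untreated, 25 members were tested there, Ccr6, Cx3cl1, Cxcl10 and Cxcl12 were called higher and Ccr2, Cxcl2, Ccl9 and Ccl6 lower, beside 12.2% of all genes tested. The median log2 ratio of tested members was -0.01, against 0.09 for all genes. In MTZ-after, 18 were tested and 4 called (Ppbp, Ccr2 and Cx3cr1 higher, Ccr6 lower), beside 4.61% of all genes, with a median of -0.09 against -0.06. In MTZ-with, 24 were tested and 8 called (Cxcl2, Ccl7 and Ccr2 higher, Ccr6, Ccl5, Cxcr6, Cxcl17 and Cxcl10 lower), beside 5.02% of all genes, with a median of -0.18 against -0.01. In alternative settings the high-fat calls of Cxcl2 and Cxcl12 were lost in 4 and 3 of 8, those of Ccr6 and Cxcl10 in 2 of 7 and that of Cx3cl1 in 1 of 8. The calls of Ppbp and Ccr6 in MTZ-after were lost in 3 and that of Cx3cr1 in 1 (ratio 1.99), and in MTZ-with those of Ccl5 in 6, Cxcr6 and Cxcl17 in 5, and Ccl7, Cxcl2, Cxcl10 and Ccr6 in 3. Within single clusters, from untreated to high-fat, 1 of 12 tested in cluster 6 (Cxcl12, 2.34), 2 of 14 in cluster 11 and 0 of 8 in cluster 20 were called, beside 4.19%, 11.2% and 6.44% of all genes. The cluster 11 calls, Cx3cr1 at 2.41 (0.810 to 11.8) and Ccl3 at 2.40 (0.805 to 11.7), rest on 3 untreated UMIs each. In cluster 20 no member was called in any comparison, with 3 tested in MTZ-after and 4 in MTZ-with, beside 3.92% and 3.68% of all genes. No test was run behind these counts.

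In MTZ-after against high-fat, cluster 11 had 4 of 16 tested members called, beside 4.84% of all genes: Ppbp higher at 6.98 (4.74 to 10.2), and Ccr6, Ccl8 and Ccl5 lower on 1, 3 and 3 UMIs in MTZ-after. In MTZ-with against high-fat, cluster 6 had 4 of 11 called, beside 3.9% of all genes: Ccl7 higher, and Ccl6, Cxcl12 (0.377, 0.206 to 0.648) and Ccl9 (0.498, 0.348 to 0.699) lower. Cluster 11 had 4 of 14 called in MTZ-with, all lower, beside 5.54% of all genes: Ccl4, Cxcl17, Ccl5 and Ccr6, the last 3 on 3, 2 and 1 UMIs.

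The classes of vessel wall and surrounding tissue were compared in the same way, and 3 of them were made of several clusters that the libraries held in different shares. Of the endothelial-like nuclei, cluster 7 (led by Ccdc60, Frmd5 and Nfasc) held 662, 7323, 1953 and 909, cluster 8 (led by Lrrc3b) 1769, 173, 613 and 1073, and cluster 18 (led by Adarb2) 862, 123, 2362 and 336. Of the fibroblast-like nuclei, cluster 14 (led by Scara5, Abca8a and C7) held 1563, 1254, 2163 and 1857, cluster 21 (led by Cemip and Mmp13) 203, 2154, 284 and 299, and cluster 24 (led by Gfpt2) 785, 38, 65 and 163. Brown adipocyte-like nuclei were cluster 1, with 4929, 1403, 3698 and 1951, and cluster 0, with 2678, 30, 154 and 189. Single clusters are given below where both libraries had at least 200 nuclei.

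From untreated to high-fat, endothelial-like nuclei had 9 of 14 tested members called, all higher, beside 10.5% of all genes. Among them were Ccl9 5.12 (3.29 to 8.31), Ccl4 4.38 (2.84 to 6.99), Ccl6 4.24 (3.33 to 5.45), Ccr1 3.91, Cxcr4 3.70, Ccr2 3.11, Cxcl16 2.32 and Ccl2 2.25. Cluster 7 alone had 9 of 12 called, beside 12.7%: 8 of the same members were higher, with Ccl6 at 6.91 (4.06 to 12.8), Ccr2 at 3.19 (1.97 to 5.49) and Cxcl16 at 2.31 (1.71 to 3.20), and Cxcl1 was lower at 0.424 (0.341 to 0.529). Fibroblast-like nuclei had 6 of 15 called higher and Ccl11 lower, beside 11.2%. Among the higher ones were Ccl4 8.11 (4.58 to 15.5), Cxcr4 4.03, Cxcl16 3.24, Ccr2 2.60 and Ccl6 2.44. Cluster 14 alone had 2 of 6 called, both higher, beside 4.54%, with Cxcl16 at 2.41 (1.67 to 3.50), and cluster 21 alone had 4 of 10 higher and Cxcl1 lower, beside 12.1%. Ccr2 was 1.96 and 1.74 and Ccl6 1.66 and 1.91 in clusters 14 and 21, below the fold that makes a call.

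Adipocyte-like nuclei had 5 of 6 called, all higher, beside 13.6%, among them Cxcl16 6.18, Ccr2 3.88, Ccl6 2.82 and Cxcl12 2.56. Brown adipocyte-like nuclei had 4 of 9 called higher and Ccl11 lower, beside 11.0%, among them Cxcl16 3.85, Cxcl12 2.26, Ccl6 2.20 and Ccl11 0.467 (0.0949 to 1.40) on 3 high-fat UMIs. In cluster 1 alone, 2 of 8 were higher and Ccl11 was lower, beside 6.44%, with Cxcl16 at 2.43 (1.74 to 3.35), while Ccl6 at 1.46 and Cxcl12 at 1.56 were not called. Ccr2 was the 1 called of 4 in T/NK-like nuclei, beside 10.1%, and Cxcr5 the 1 called of 1 in B cell-like nuclei, beside 17.0%. None of 2 was called in smooth muscle-like nuclei, beside 8.44%.

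The 14 macrophage markers were also summed in the same nuclei. From untreated to high-fat their sum went from 449 to 1082 CPM in endothelial-like nuclei, with 14 of 14 markers higher, and from 521 to 1356 CPM in fibroblast-like nuclei. The ratio was 2.41 and 2.61 there, 2.84 in adipocyte-like, 2.22 in brown adipocyte-like, 2.42 in T/NK-like, 3.68 in B cell-like and 1.73 in smooth muscle-like nuclei, against 0.784, 1.09 and 0.875 in clusters 6, 11 and 20. Where these sums were higher, Ccr2 in T/NK-like, Cxcr5 in B cell-like and Ccl11 in fibroblast-like and brown adipocyte-like nuclei were called lower. The part of macrophage RNA in the calls of these classes was not tested.

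**Figure D5:**
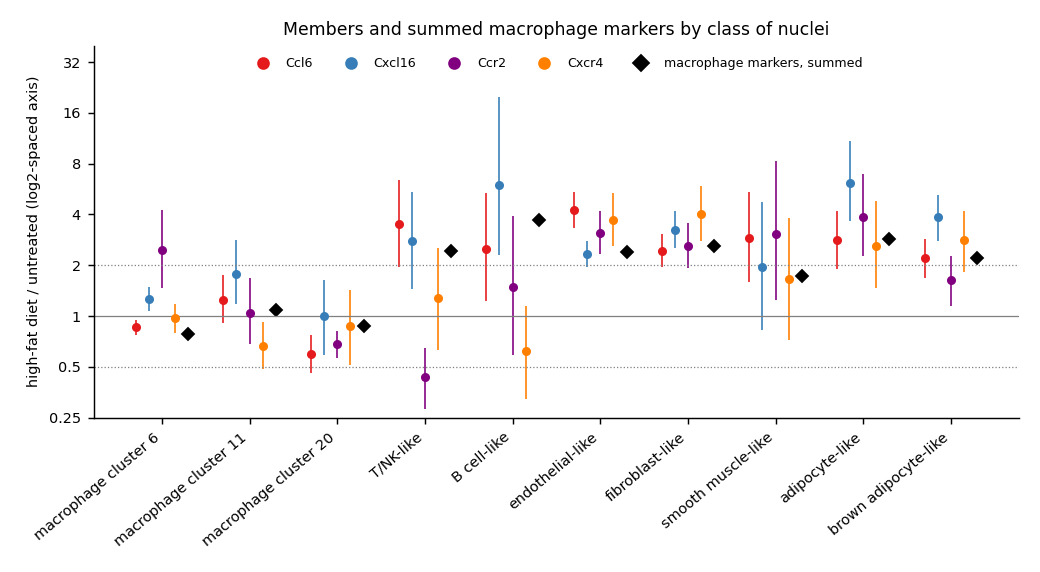
High-fat to untreated ratio (log2-spaced axis) of Ccl6, Cxcl16, Ccr2 and Cxcr4 by class of nuclei, with exact 95% intervals, beside the ratio of the 14 macrophage markers summed (black diamonds). Cxcl16 is above 2 in endothelial-like, fibroblast-like, adipocyte-like and brown adipocyte-like nuclei. The summed macrophage markers lie above 2 in the same 4 classes and also in T/NK-like and B cell-like nuclei.

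Against high-fat, the MTZ libraries gave calls in both directions in these classes. In MTZ-after, fibroblast-like nuclei had 6 of 13 called, beside 6.77% of all genes, among them Ppbp higher at 9.72 (5.67 to 17.7), and Ccl4 0.378, Cxcr4 0.448, Ccl2 0.465 and Cxcl16 0.466 lower. Endothelial-like nuclei had 3 of 16, beside 6.53%: Ppbp 8.24, Ccr9 2.64 and Ccl4 0.440. Brown adipocyte-like nuclei had Ppbp at 5.23 and Ccr9 at 3.85 called of 10, beside 6.42%. Smooth muscle-like nuclei had Ppbp at 10.4 (2.78 to 88.0, on 2 high-fat UMIs) and Cxcl1 at 2.64 (1.45 to 5.27) called of 5, beside 6.82%, and adipocyte-like nuclei had Cxcl16 at 0.335 of 5, beside 7.17%. No member was tested in T/NK-like and B cell-like nuclei. Of single clusters, cluster 7 had 4 of 13 called, beside 4.37% (Ppbp and Cxcl1 higher, Ccl4 and Cxcr4 lower), cluster 14 had 3 of 8, beside 5.22%, cluster 21 had 4 of 9, beside 8.53%, and cluster 1 had Ppbp and Ccr9 of 10, beside 6.26%. In cluster 14, Cxcl16 was lower (0.406). Ccl4 (0.667), Cxcr4 (0.714) and Ccl2 (0.667) had 16, 28 and 24 UMIs there in high-fat, the library of higher CPM, and were not tested. In cluster 21, Cxcl1 was higher at 4.24 (3.01 to 5.93), and Ccl4 (0.322) and Cxcr4 (0.160) were lower. Ccl2 (0.585) and Cxcl16 (0.887) were tested there and not called.

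In MTZ-with, fibroblast-like nuclei had 5 of 14 called, beside 5.76% of all genes, among them Ccl11 higher, and Ccl4 0.225 (0.129 to 0.373), Cxcr4 0.434 and Cxcl16 0.489 lower. Endothelial-like nuclei had 3 of 14, beside 7.36%, among them Ccl4 0.0874 (0.0343 to 0.186) and Cxcr4 0.411. Adipocyte-like nuclei had 2 called of 6, beside 4.56%, among them Cxcl16 at 0.396, and brown adipocyte-like nuclei had 1 of 8, beside 4.9%. Of single clusters, cluster 7 had 4 of 13 lower, beside 7.11%, cluster 14 had 1 of 10, beside 3.53%, cluster 21 had 6 of 10, all lower, beside 9.78%, and cluster 1 had 1 of 7, beside 4.21%. In cluster 14, Cxcl16 (0.583) was not called. Ccl4 (0.452) and Cxcr4 (0.775) had 16 and 28 UMIs there in high-fat, the library of higher CPM, and were not tested. In cluster 21, Ccl4 (0.120), Cxcr4 (0.179) and Cxcl16 (0.470) were lower. Cxcr5 was 1 of 2 in B cell-like nuclei, beside 5.04%, Ccl5 was 1 of 2 in T/NK-like nuclei, beside 4.78%, and 0 of 3 was called in smooth muscle-like nuclei, beside 6.63%. The summed macrophage markers were 0.661 and 0.565 of high-fat in endothelial-like and fibroblast-like nuclei of MTZ-after, and 0.523 and 0.571 in those of MTZ-with, and again their part was not tested.

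The wider pathway was followed in 54 genes of 6 lists: atypical receptors that take up chemokines without G protein signalling, regulators of G proteins and receptors, signalling for migration, proteases and heparan sulfate proteins, other leukocyte attractants, and NF-kB and interferon regulators. Over all kept nuclei, 52 of the 54 were tested in each comparison. From untreated to high-fat 9 were called higher and 5 lower, or 14 of 52, where 13.8% of all genes tested were called. In the list of migration signalling 4 of 10 were higher, namely the actin regulator Was at 2.85, the exchange factor Vav1 at 2.27 (25.0 to 56.8 CPM), Rac2 at 2.10 and Plcb2 at 2.06. Of 8 other leukocyte attractants and their receptors tested, the complement receptor C3ar1 at 2.89 (25.3 to 73.0 CPM) and Cd74 at 2.01 were higher. Of 12 regulators of G proteins and receptors, Arrb2 at 2.57 and the G protein brake Rgs1 at 2.06 (36.7 to 75.7 CPM) were higher and Grk3 at 0.342 and Rgs2 at 0.432 lower. Of 7 proteases and heparan sulfate proteins, Sdc1 was higher at 2.58. The scavenging receptors Ackr3, which binds Cxcl12, and Ackr4, which binds Ccl21 and Ccl25, were lower at 0.343 and 0.322. Ackr3 was 178, 61.3, 107 and 117 CPM over the 4 libraries and Ackr4 29.9, 9.63, 35.0 and 15.9. Dpp4, a protease that trims Cxcl12, was lower at 0.391.

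In macrophage-like nuclei 49 of the 54 were tested in the same comparison, 0 were called higher and 4 lower, where 12.2% of all genes tested were called: Csf1r at 0.364, C5ar1 at 0.371, Dock2 at 0.492 and Rgs10 at 0.499. Csf1r is itself among the 14 macrophage markers used to name the class. By cluster, 0 of 44 tested were called in cluster 6, 2 of 36 in cluster 11, both higher, and 3 of 35 in cluster 20, all lower. The shares of all genes were 4.19%, 11.2% and 6.44% there. Against high-fat, MTZ-after had 2 higher over all kept nuclei (Ackr4 at 3.63 and Il34 at 2.72) and 6 lower (C3ar1 0.357, Rgs1 0.418, Irf8 0.419, Pik3r5 0.452, Vav1 0.467 and Was 0.482), or 8 of 52, where 16.3% of all genes tested were called. MTZ-with had 2 higher (Dpp4 at 3.75 and Ackr2 at 2.70) and 4 lower (C3ar1 0.369, Rgs1 0.411, Irf8 0.484 and Vav1 0.494), or 6 of 52, where that share was 10.5%. In macrophage-like nuclei 1 of 47 was called in MTZ-after (Ackr4, 2.50) and 1 of 48 in MTZ-with (Csf1r, 2.44), where 4.61% and 5.02% of all genes tested were called. Of the 9 NF-kB and interferon regulators, 0 were called from untreated to high-fat, over all kept nuclei or in macrophage-like ones, and Irf8 was the only one called lower in the MTZ libraries.

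The members not yet given had low counts. Cxcl14 had 334 UMIs over the 4 libraries, and Ccl19, Ccl28, Ccr10, Cxcr1 and Xcr1 had between 64 and 126. Xcr1, the receptor of cross-presenting dendritic cells, was highest in cluster 20 in the untreated and high-fat libraries, at 4.12 and 9.95 CPM on 8 and 6 UMIs. Cluster 20 was also highest in MTZ-with, at 4.60 CPM, where its interval overlapped that of the next class. In MTZ-after adipocyte-like nuclei were highest, at 2.26 CPM. Ccl22, Ccr3, Ccr4, Ccl17, Xcl1, Ccl1, Ccl26, Ccr8 and Cxcl15 had 3 to 36 UMIs. Over the classes named, 11 members had the same class highest in all 4 libraries when the macrophage-like clusters were treated as 1 class: Cxcr4, Cxcl16, Ccl2 and Ccl4 in macrophage-like nuclei, Ccl21a in lymphatic-like, Cxcr5, Ccr6 and Ccr7 in B cell-like, and Cxcr6, Ccl5 and Cxcr3 in T/NK-like nuclei. Ccr7, with 2 UMIs in high-fat, lost this in all 5 alternative settings of filters and clustering, Ccl2 in 3, Ccl4 and Ccl5 in 2, and Cxcl16, Cxcr6 and Cxcr3 in 1.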

How the data were processed

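The authors deposited 1 filtered matrix of raw UMI counts per library, made with Cell Ranger 7.0.1 per the file headers and aligned to mm10 with STAR per the submitters' processing notes. Whether intronic reads or the strand were counted is not given in the sources used here. Nuclei came from 10x 3' libraries, per the labels' protocols. Nuclei with at least 300 genes and at most 10% mitochondrial counts were kept, and in each library those with the highest 8% of Scrublet scores were removed as likely doublets. For clustering, log values of counts per 10000 were used, and the 63 chemokine genes were left out of the 2000 variable genes (20 of them), leaving 1980. Each gene was scaled to unit variance, a choice made after unscaled clustering had put T cell, B cell and myeloid markers in 1 cluster. Leiden clustering (30 principal components, 20 neighbours, resolution 1) gave 26 clusters. A class was a candidate only where at least 3 of its markers were enriched 2-fold. The candidate with the highest mean log ratio was taken, unless another had more markers among the 10 leading genes. A cluster stayed unnamed if no own marker led and the enriched markers did not outnumber the rest. It also stayed unnamed if at least 3 leading genes were ribosomal or mitochondrial, or if it was shallow with no own marker leading. Raw counts were then summed per library and class, and the 8 classes that reached 200 nuclei in all 4 libraries were compared. Gene positions are from GENCODE (56 of the 63 genes found) and promoters from RefSeq.

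The members and gene lists were chosen with earlier results of these data known. Values in every library are given for members with at least 500 UMIs, members called in macrophage-like or all kept nuclei, and the ligand and receptor with the highest CPM in each compared class. Counts are over all 63 genes, but 1 member is not reported here by name. The calling rule and intervals were tested on simulated data. The alternatives tried were another seed, finer clustering, centring of libraries, stricter filters, no doublet removal, lower count minimums, TMM factors, equal weights and thinning. Summing without some classes and by single cluster were added after the data were seen. Software was Python 3.11.15, scanpy 1.11.5, scipy 1.17.1, numpy 2.4.6, pandas 2.3.3, igraph 0.11.9 and matplotlib 3.10.9.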

Additional observations from a re-analysis of the deposited data

Results flagged for a closer look

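Some members were called in opposite directions in different classes of the same pair of libraries, and none of these differences between classes was tested. From untreated to high-fat, Ccr2 was lower in macrophage-like nuclei (ratio 0.341) and T/NK-like nuclei (0.434) and higher in adipocyte-like (3.88), endothelial-like (3.11) and fibroblast-like nuclei (2.60). Ccl6 was lower in macrophage-like nuclei (0.469) and higher in adipocyte-like (2.82), brown adipocyte-like (2.20), endothelial-like (4.24) and fibroblast-like nuclei (2.44). In fibroblast-like clusters 14 and 21 taken singly, Ccr2 (1.96 and 1.74) and Ccl6 (1.66 and 1.91) stayed below 2-fold. Ccl9 was lower in macrophage-like nuclei (0.434) and higher in endothelial-like nuclei (5.12). From high-fat to MTZ-with, Ccl5 was higher in T/NK-like nuclei (2.41) and lower in macrophage-like nuclei (0.335), a value that was 1.10 without doublet removal.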

How the results depend on the processing

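No paired analysis was possible because each group is 1 library and the groups share only the replicate number 1. Removing nuclei by Scrublet's automatic thresholds was not run as a setting of its own, since these marked 0 nuclei in every library. Counts of called members over all kept nuclei changed with the nuclei summed, the depth and the count minimum. In high-fat against untreated (14 called) thinning to 500 UMIs gave 9, and with TMM factors 8 were higher and 4 lower in place of 11 and 3. In MTZ-after (9 called) a count minimum of 10 gave 15, a minimum of 1 gave 16, and leaving out macrophage-like nuclei and unnamed clusters gave 5, while that last setting gave 9 in MTZ-with (18 called).

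In macrophage-like nuclei the counts were less stable. For high-fat (8 called) they were 3 without doublet removal, 5 with finer clustering, 5 with centred libraries, 13 and 15 with minimums of 10 and 1, 4 after thinning, and 1, 2 and 0 in clusters 6, 11 and 20. For MTZ-after (4 called) they were 1 with finer clustering, 12 and 15 with the lower minimums, 2 after thinning and 0 in cluster 20, and cluster 6 was not computed with 188 nuclei. For MTZ-with (8 called) they were 4 without doublet removal, 1 with finer clustering, 5 with centred libraries, 16 and 20 with the lower minimums, 1 after thinning, and 4, 4 and 0 in the clusters. Over the other classes, 55 calls became 177, 312 and 21 with minimums of 10 and 1 and with thinning. The share of all genes called is given above for sums without some classes and for single clusters, but for no other alternative setting. The counts under those other settings are therefore no result about the members. In fibroblast-like nuclei, cluster 14 alone gave 2 in high-fat (7 called), 3 in MTZ-after (6 called) and 1 in MTZ-with (5 called), and in brown adipocyte-like nuclei cluster 1 alone gave 3 in high-fat (5 called). Clusters with fewer than 200 nuclei in a library were not computed. The cause of these changes was not tested beyond the smaller counts that thinning and single clusters leave.

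Of 363 single ratios recomputed, 281 kept their call, and 2 changed direction in MTZ-with macrophage-like nuclei: Cxcl17 at 1.01 after thinning and Ccl5 at 1.10 without doublet removal. The Ccr2 call in macrophage-like nuclei held in 7 of 8 alternatives for high-fat (0.302 to 0.552), and in 8 of 8 for MTZ-after (2.32 to 3.35) and MTZ-with (2.41 to 3.35). Those of Ccl6 (0.354 to 0.924) and Ccl9 (0.303 to 0.787) held in 4 of 8. The size of the macrophage-like class in high-fat ran from 1318 to 14747 nuclei over the clustering settings. Low counts limit the rarer members, since 9 of the 63 genes had 1 to 49 UMIs and another 17 at least 50 but fewer than 500.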
